A study of Mus musculus with 2 samples.

Results

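The genes described here are 10 members of the BCL2 family, which decide whether a cell under stress lives or dies by apoptosis: Bcl2, Bcl2l1, Mcl1, Bax, Bak1, Bad, Bid, Bbc3, Pmaip1 and Bcl2l11. They were chosen by name, and each was found on 1 gene ID among the 42392 gene IDs of the deposited expression table. The library comes from hair follicle stem cells, the bulge cells from which the follicle regrows, taken in anagen II-III, the early growth phase. The donors were female mice with a K15-CrePGR transgene and the genotype Shh+/-, treated with RU486 for 8 days. In such a transgene a keratin 15 promoter drives a Cre recombinase that RU486 activates, so the Cre is limited to keratin 15-expressing cells. The labels name no floxed allele, call the sample a control, and do not say how many animals it pools. A telogen sample with the same genotype, sex and treatment was not analysed here, because no column name carries its label alone. The cells were sorted as positive for CD34, high for integrin alpha 6 and negative for SCA1 and for markers of leukocytes, endothelium, fibroblasts and melanocytes. Values are TPM, the relative abundance of transcripts after division by gene length and library total, so that levels of different genes can be compared. There is 1 library and no replicate, so no value has an error, no test was possible, and the read depth is unknown.

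The family acts at the outer membrane of mitochondria. The effectors BAX and BAK1 can form pores there that release cytochrome c and start the caspases. BCL2, BCL-XL (from Bcl2l1) and MCL1 hold the effectors in check, and the BH3-only proteins, each answering to other kinds of stress, bind and block these guardians or trigger the effectors directly. In the hair follicle, apoptosis is best known from catagen, the phase in which the lower follicle regresses while the bulge survives.

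All 10 genes were expressed, taking 1 TPM as the minimum, and they covered a 23.2-fold range. Of all protein-coding genes in the table, 56.2% reached 1 TPM. At 5 TPM or more there were 7 of the 10, against 42.6% of protein-coding genes. The median of the 10 levels was 13.6 TPM, close to the median of 12.5 TPM over the 11509 protein-coding genes that were expressed. Behind that middling median the genes stood in separate ranges. Mcl1, Bad, Bax, Bcl2l1 and Bak1 lay between 20.2 and 54.3 TPM, all above the median of expressed genes, which 28.1% of all protein-coding genes exceeded. Bcl2, Bcl2l11, Pmaip1, Bbc3 and Bid lay between 2.34 and 6.89 TPM, all below it. The widest step in the order, 2.94-fold, separated Bak1 from Bcl2. Each role had members on both sides of that step except the effectors, which were both above it.

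**Figure D1:**
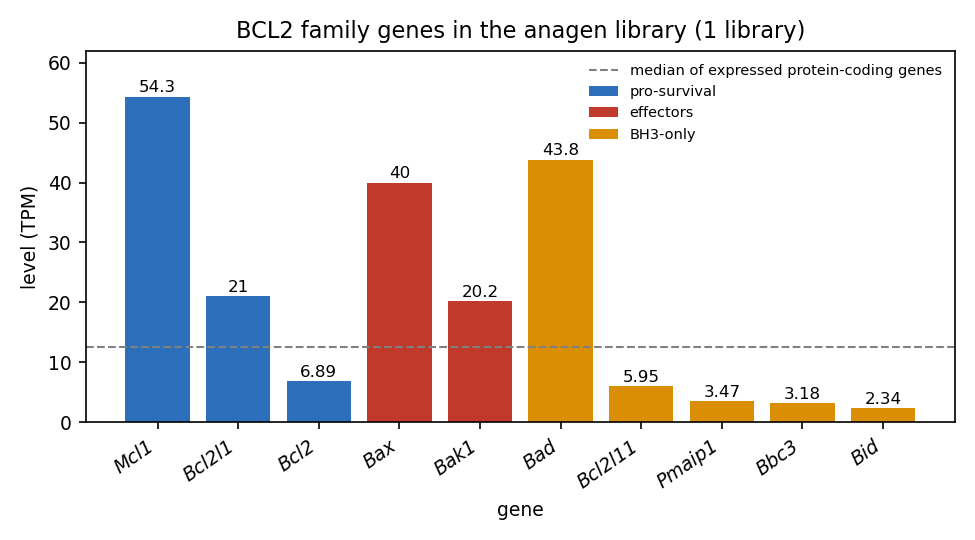
Level in TPM (vertical axis, from 0) of each of the 10 genes in the single anagen library, grouped by role, with the dashed line at the median of expressed protein-coding genes (12.5 TPM); there are no error bars because there is no replicate. Mcl1, Bcl2l1, Bax, Bak1 and Bad rise above the line, and 4 of the 5 BH3-only genes stay under 6 TPM, Bcl2l11 being the highest of these at 5.95 TPM.

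Among the guardians, Mcl1 was the most abundant and Bcl2, the founding member of the family, the least. Mcl1, whose protein is short-lived and must be made continually, stood at 54.3 TPM, the highest of the 10 genes (ENSMUSG00000038612, GRCm38 chromosome 3, 95656944 to 95663179). Bcl2l1 stood at 21.0 TPM (ENSMUSG00000007659, chromosome 2, 152758732 to 152833803). Bcl2 stood at 6.89 TPM (ENSMUSG00000057329, chromosome 1, 106538176 to 106714290). Mcl1 was thus 2.58-fold above Bcl2l1 and 7.88-fold above Bcl2, and it supplied 66.0% of the summed guardian level against 25.6% from Bcl2l1 and 8.38% from Bcl2. Mcl1 exceeded 87.0% of expressed protein-coding genes, Bcl2l1 65.7% and Bcl2 31.9%. The share for Bcl2 rests on the minimum level: it fell to 10.3% under a 5 TPM minimum and rose to 61.7% without any. Bcl2l1 also gives rise by splicing to BCL-XS, a short form that promotes death, and Mcl1 to short forms with the same effect. A level per gene sums over these forms.

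Bcl2, the lowest of these guardians, had the promoter window richest in CG pairs, a feature common at broadly expressed genes. RefSeq windows of 300 bases, from 250 before to 50 after a start site on GRCm38.p6, were found for 9 of the 10 genes, 15 windows in all. The Bcl2 window had 44 CG pairs, the most of the 15, while 1 of the 3 Bcl2l1 windows had 1 CG pair, the fewest. All windows of Bcl2l1, Mcl1 and Bbc3 lie within the annotated span of their own gene. The bases before these annotated genes were thus not searched. The median was 27 CG pairs over the 15 windows, 21 over the 11851 windows of expressed protein-coding genes and 7 over all 32817 windows. GC boxes, searched on both strands as GGGCGG, stood in 10 of the 15 windows and 7 of the 9 genes, and in 35.6% of all windows and 63.5% of those of expressed protein-coding genes. The 250 bases before the Bcl2 start, shown because they hold 7 GC boxes beside a low transcript level, lie at chr1:106714291-106714540 on the minus strand. A Bbc3 window holds as many GC boxes before its start, and Bbc3 was lower still at 3.18 TPM. Capitals mark the GC boxes.
Bcl2: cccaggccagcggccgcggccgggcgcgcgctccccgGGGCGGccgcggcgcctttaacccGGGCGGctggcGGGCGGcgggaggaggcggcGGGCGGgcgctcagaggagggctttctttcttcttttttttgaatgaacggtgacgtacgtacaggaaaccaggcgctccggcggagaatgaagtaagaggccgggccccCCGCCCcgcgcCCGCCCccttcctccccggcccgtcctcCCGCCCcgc
The TATA box TATAAA was in none of the 15 windows. It was present in 13.6% of all windows and in 6.88% of those of expressed protein-coding genes. A match of letters is a description of the sequence and does not show that a factor binds there.

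**Figure D2:**
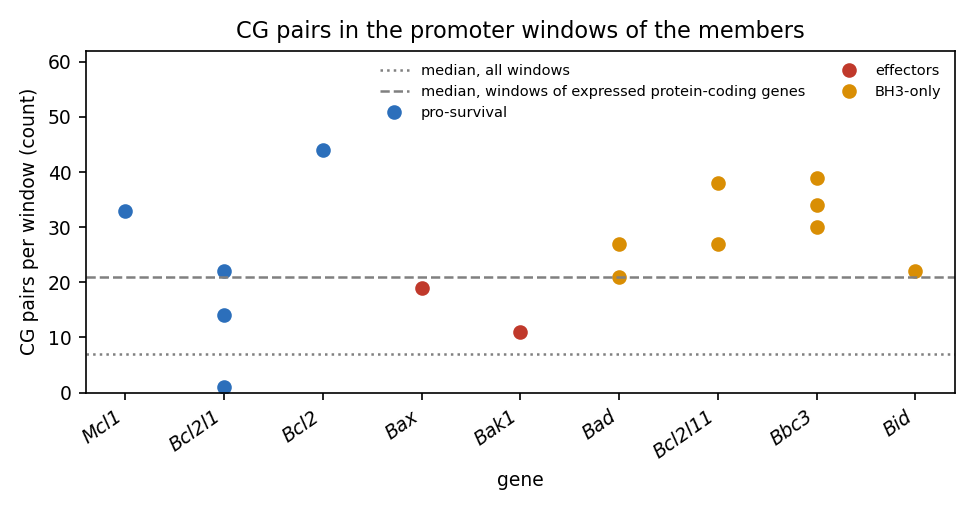
Number of CG pairs (vertical axis) in each 300-base RefSeq promoter window of 9 of the genes, 1 point per window, with lines at the median of all windows (7) and of windows of expressed protein-coding genes (21). Bcl2 has the highest point at 44 and Bcl2l1 the lowest at 1, so the order of CG pairs is not the order of transcript levels. The Bcl2l1 windows lie within its annotated gene.

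Both effector genes were well expressed, and Bax was the higher. Bax stood at 40.0 TPM (ENSMUSG00000003873, chromosome 7, 45461695 to 45466903), above 81.6% of expressed protein-coding genes. Bak1 stood at 20.2 TPM (ENSMUSG00000057789, chromosome 17, 27019812 to 27028627), above 64.7% of them. Bax was 1.98-fold above Bak1. Bak1 and the guardian Bcl2l1 had nearly the same level, 1.04-fold apart. In the RefSeq annotation Ggnbp1, at 10.3 TPM, spans the whole of Bak1, so reads of the 2 genes may have been confused if counting ignored strand, which the sources used here do not state. Summed over their members, the guardians reached 82.3 TPM and the effectors 60.3 TPM, a ratio of 1.37. With the other guardians and Bok, the third effector-like gene, added, the ratio turned to 0.811. Bok, at 60.7 TPM, was the only effector added, against 15.8 TPM over the 5 guardians added. The ratio was 1.69 if Bcl2l2 was read from the ID it shares with Pabpn1. These are sums of RNA, and protein amounts were not measured.

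The p53 half-site had a match in 1 of the 15 windows, that of Bax, a known p53 target. That share, 6.67%, is no higher than in all windows, 8.36%, or in windows of expressed protein-coding genes, 6.81%, so nothing particular to the members is read from it. The 245 bases before the annotated gene are shown to place the match. They lie at chr7:45466904-45467148 on the minus strand, with the half-site in capitals. It ends 191 bases before the start site and overlaps no other motif searched. The half-site pattern is its own reverse complement, so any match reads on both strands.
Bax: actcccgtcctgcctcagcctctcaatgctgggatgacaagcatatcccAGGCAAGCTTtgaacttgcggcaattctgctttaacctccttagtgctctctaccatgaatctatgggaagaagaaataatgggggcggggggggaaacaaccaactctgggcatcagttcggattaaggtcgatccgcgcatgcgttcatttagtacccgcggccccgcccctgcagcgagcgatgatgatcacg
Trp53 itself, which encodes p53, stood at 72.6 TPM. Bbc3 and Pmaip1, which are also p53 targets, were 22.9-fold and 21.0-fold lower than Trp53, and Bbc3 had no half-site in its 3 windows. The activity of p53 was not measured. For Pmaip1 no window was used.

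The BH3-only genes were the most uneven group, with Bad far above the others. Bad, whose protein is held inactive by survival kinases and binds BCL2 and BCL-XL once freed, stood at 43.8 TPM (ENSMUSG00000024959, chromosome 19, 6941861 to 6951905). It supplied 74.6% of the summed BH3-only level of 58.7 TPM and ranked next after Mcl1 among the 10 genes. Bcl2l11, which encodes BIM, a sensor of lost growth factors and detachment, stood at 5.95 TPM (ENSMUSG00000027381, chromosome 2, 128126038 to 128162547). Bad was 7.37-fold above it. Bad shares 590 bases of its span with Gpr137, which stood at 19.5 TPM, so part of the Bad level is open to the same doubt about strand as that of Bak1.

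The remaining BH3-only genes were close to one another and near the bottom of the expressed range. Pmaip1, which encodes NOXA, a protein that binds MCL1 in particular, stood at 3.47 TPM (ENSMUSG00000024521). Bbc3, which encodes PUMA, stood at 3.18 TPM (ENSMUSG00000002083, chromosome 7, 16308398 to 16318334). Bid, whose protein carries the signal of death receptors to mitochondria after cleavage by caspase 8, was lowest at 2.34 TPM (ENSMUSG00000004446, chromosome 6, 120893119 to 120917062). They exceeded 16.6%, 15.2% and 10.1% of expressed protein-coding genes, or 53.2%, 52.4% and 49.5% of all protein-coding genes with no minimum. Pmaip1 and Bbc3 were 1.09-fold apart, and Bcl2l11 was 2.54-fold above Bid. Mcl1 was 15.7-fold above Pmaip1. The guardians together were 1.40-fold above the BH3-only genes together, and 5.51-fold above them when Bad was left out.

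Bcl2l11 and Bbc3 are known targets of FOXO factors, and each had 1 window with the FOXO element GTAAACA, searched on both strands and present in 3.65% of all windows and 2.43% of those of expressed protein-coding genes. It was in no window of the other 7 genes searched. That makes 2 of the 15 windows, too few to read anything particular to the members from the share. The Bbc3 element lies within the annotated span of Bbc3, and the upstream bases of that Bcl2l11 window overlap Acoxl. The stretches are shown with 10 bases on each side and the element in capitals, from chr2:128125801-128125827 and chr7:16310084-16310110, both on the plus strand. In Bbc3 the element reads on the opposite strand.
Bcl2l11: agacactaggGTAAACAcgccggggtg
Bbc3: ctggcgggttTGTTTACaaacaatggg
Neither element overlaps another motif searched. The cAMP response element TGACGTCA and the ATF-C/EBP composite element TGATGNAAT, a site of ATF4 dimers, were in none of the 15 windows, and in 1.79% and 0.966% of all windows, or 3.03% and 0.481% of those of expressed protein-coding genes.

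**Figure D3:**
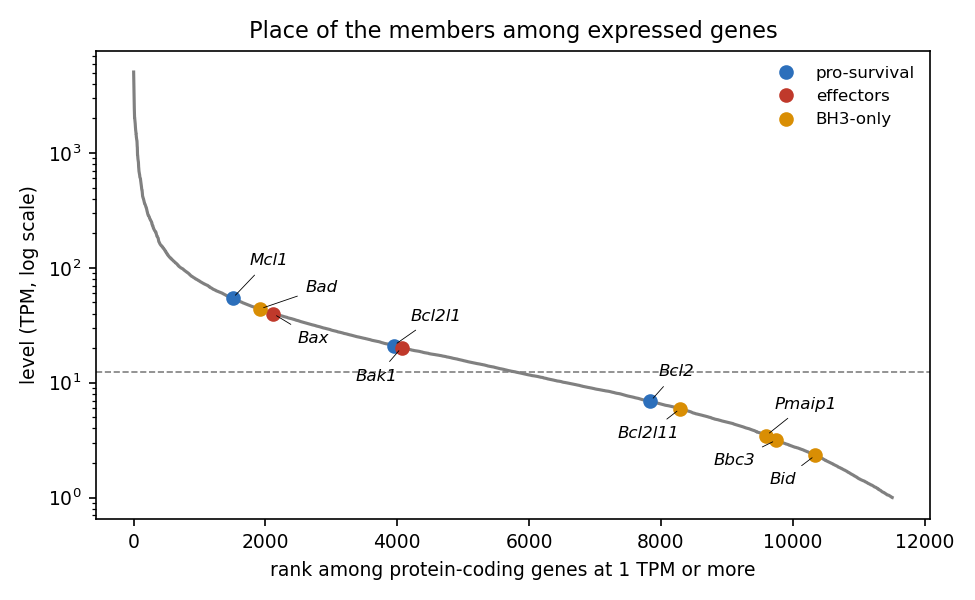
Level in TPM (log scale) against rank for the 11509 protein-coding genes at 1 TPM or more in the anagen library, with the 10 BCL2 family genes as coloured points and a dashed line at the median of 12.5 TPM. Mcl1 has rank 1501 and Bid rank 10345, and no member lies between Bak1 at rank 4067 and Bcl2 at rank 7841.

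The other guardian, effector and BH3-only genes ranged widely, and Bok and Bcl2l2 were the ones above the median of expressed genes. Bok, the third effector-like gene whose protein resides mainly at the endoplasmic reticulum, stood at 60.7 TPM, 1.52-fold above Bax and higher than any of the 10 members. Of the other guardians, Bcl2l2, which encodes BCL-W, stood at 15.7 TPM, between Bcl2l1 and Bcl2. Bcl2a1a stood at 0.143 TPM, and Bcl2l10, Bcl2a1b and Bcl2a1d were listed at 0; the Bcl2a1 genes are near-identical copies, so reads may be split among them. The BH3-only genes Bmf, Bik and Hrk stood at 4.29, 0.399 and 0.00317 TPM. With the other guardians and Bok added, the guardians summed to 98.1 TPM and the effectors to 121 TPM, the latter through Bok alone. The ratio thus changed from 1.37 to 0.811. Of the family's more distant relatives, the autophagy gene Becn1 stood at 67.4 TPM and the mitophagy receptors Bnip3l and Bnip3 at 38.9 and 17.4 TPM. Bcl2l12 and Bcl2l13 stood at 12.6 and 12.5 TPM, and Bcl2l15 and Bcl2l14 at 0.542 and 0.322 TPM.

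Genes of proteins that the family meets at mitochondria had a median of 38.2 TPM, against 13.6 TPM for the 10 members. All 6 exceeded 5 TPM, a level that 42.6% of all protein-coding genes reached. The outer membrane channel genes Vdac1 and Vdac2 stood at 116 and 88.7 TPM and Vdac3 at 21.5 TPM. VDAC2 is a partner of BAK1, and its transcript was 4.38-fold above that of Bak1. Mtch2, which encodes the mitochondrial docking protein for cleaved BID, stood at 54.9 TPM, 23.5-fold above Bid. The fission gene Dnm1l and the inner membrane fusion gene Opa1 stood at 16.3 and 10.6 TPM.

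Transcripts of apoptosome and caspase genes were present, with Apaf1 lowest in this group. None of the 6 apoptosome and caspase genes described here fell below 1 TPM, which 56.2% of all protein-coding genes reached. Their median level was 20.9 TPM. Cycs, the released cytochrome c, stood at 38.9 TPM, and Apaf1, the scaffold it binds, at 3.98 TPM. The initiator gene Casp9 stood at 13.1 TPM, 3.30-fold above Apaf1. The caspase gene Casp6 stood at 28.6 TPM, and Casp2 and Casp8 at 30.04 and 11.4 TPM. Caspase 8, which cleaves BID, acts before the pore. Genes of caspase inhibitors and of their antagonists had a median of 17.6 TPM over 8 genes. Birc5, which encodes survivin and also serves chromosome segregation in mitosis, led them at 58.6 TPM. Birc6, Xiap, Birc2 and Birc3 stood at 32.0, 15.5, 10.7 and 7.74 TPM. The antagonists Diablo and Htra2 stood at 30.7 and 19.8 TPM, and Sept4, whose ARTS form opposes XIAP, was lowest at 1.499 TPM. Among 6 genes linked to nuclear breakdown, not all of which promote it, Acin1 stood at 97.4 TPM. Aifm1 and Parp1 stood at 21.0 TPM each, Dffa at 13.8 TPM, Endog at 6.70 TPM and Dffb at 4.84 TPM.

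The death receptor route, which reaches the family through Bid, had a low median with 1 abundant receptor. Of 11 genes, 9 reached 1 TPM, against 56.2% of all protein-coding genes, and the median was 4.88 TPM. Tnfrsf1a, the main receptor for tumour necrosis factor, stood at 135 TPM, and its adaptor gene Tradd at 20.9 TPM. Cflar, which blocks caspase 8, stood at 16.1 TPM and the kinase gene Ripk1 at 7.32 TPM. The ligand genes Tnfsf10 and Fasl were lowest at 0.119 and 0.00965 TPM.

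All 9 genes of factors that can switch on family genes reached 5 TPM, against 42.6% of all protein-coding genes. Of the 9, 6 lay above the median of expressed genes, which 28.1% of all protein-coding genes exceeded. Atf4 led these 9 genes at 127 TPM, followed by Trp53, as given above, and Stat3 at 45.6 TPM. Atf4, the effector of the integrated stress response named in the series title and a known activator of Pmaip1, was 36.6-fold above Pmaip1. These are RNA levels, and the activity of ATF4 was not measured. Ddit3, which encodes CHOP and can raise Bcl2l11, stood at 20.1 TPM and Rela at 19.6 TPM. Foxo1, Foxo3, E2f1 and Trp73 stood between 11.4 and 13.9 TPM. Among 12 genes acting on the stability or phosphorylation of MCL1, BAD or BIM proteins, the median was 38.0 TPM. The 14-3-3 genes Ywhae, Ywhaz and Ywhab, whose proteins hold phosphorylated BAD in the cytosol, stood at 342, 177 and 80.2 TPM, and the BAD kinase gene Akt1 at 91.4 TPM. Btrc and Fbxw7, which target proteins including MCL1 for degradation, were lowest at 2.62 and 6.76 TPM. Beside the 10 members, 64 of the 74 pathway genes were expressed, against 56.2% of all protein-coding genes. The 74 had a median level of 15.6 TPM.

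**Figure D4:**
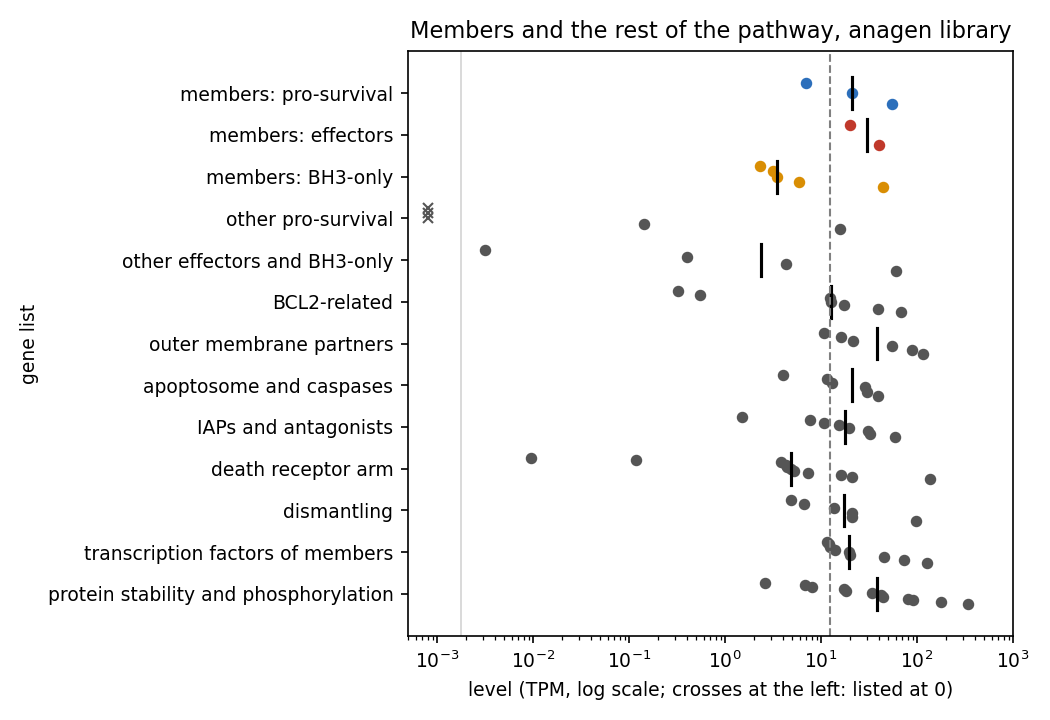
Level in TPM (log scale) of each gene of the 13 lists, 1 point per gene in the anagen library, with a black bar at each list's median where it is above 0, a dashed line at the expressed-gene median (12.5 TPM) and crosses for the 3 genes listed at 0. The BH3-only members have a median of 3.47 TPM, with Bad alone to the right of the line.

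These levels are averages over the sorted cells, so fewer cells of a type and less RNA per cell cannot be told apart. All 8 bulge marker genes reached 5 TPM, against 42.6% of all protein-coding genes, from Nfatc1 at 16.1 TPM to Krt15 at 3364 TPM. They include Cd34 and Itga6, the genes of proteins for which the cells were sorted. Transcripts of other skin cells were also present. The leukocyte list ranged from 0.264 to 13.2 TPM over 8 genes, with Ptprc lowest. The endothelial list ranged from 0.436 to 4.65 TPM, the melanocyte list from 0.602 to 12.6 TPM, the fibroblast list from 1.44 to 287 TPM and the suprabasal keratinocyte list from 6.77 to 769 TPM, each over 6 genes. None of these markers was at 0. The fibroblast and suprabasal lists reach levels above every member, and the other lists overlap the range of the lower members. The part of such cells in the members' levels was not tested.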

How the data were processed

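RNA was measured in 1 anagen library of sorted hair follicle stem cells. The deposited values are TPM, computed by the authors, per the file headers. Bowtie2 2.2.9, RSEM 1.2.30 and build mm10 are named in the submitters' processing notes. The sources used here do not give the annotation or the strand setting. Since TPM keeps no read depth, no interval or detection floor was set. Of 12 per-sample columns, 1 was used, the one whose name starts with the number in the anagen sample's title, and that name is its only link to the stage. No value of the other 11 was read into a result. Taking each gene ID a single time gave a sum of 1000000. Symbols came from a gene name table that matched 41523 of 42392 IDs, and gene types, positions and promoter windows from RefSeq on GRCm38.p6. Where a symbol stood on several IDs, the ID that the name table gives it was used. A planned choice of the highest ID would have put Bcl2l2 on the ID of Pabpn1. A gene at 1 TPM or more counted as expressed. The BH3-only, guardian, effector and pathway lists, the members and the alternatives were chosen with earlier results of these data known. The text names the genes of pathway lists of up to 9 genes, the 4 highest and 2 lowest of longer lists, and a few cell type markers, the other markers being given by range. Some listed genes are not reported here. Motifs were searched on both strands by exact match. Percentiles were checked by a second calculation on the library's own values. The motif search was checked on simulated sequences with planted GC boxes or cAMP response elements, and not for the other motifs. Python 3.11.15, pandas 2.3.3, numpy 2.4.6 and matplotlib 3.10.9 were used.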

Additional observations from a re-analysis of the deposited data

How the results depend on the processing

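The count of 10 members at 1 TPM or more could not fall under the 2 rescalings, whose factors were 2.10 and 1.80. Nor could it fall when the IDs of a symbol were summed, since each member has 1 ID. With a 5 TPM minimum the count was 7. The members' median of 13.6 TPM became 28.6 TPM when values were rescaled over nuclear protein-coding genes, and 24.4 TPM without mitochondrial genes and the 50 highest genes. These rescalings multiply every level by 1 factor, so folds between genes stay as they are. The median was 21.0 TPM over the 7 members at 5 TPM or more, and the geometric mean of TPM + 0.1 was 11.6 TPM. The ratio of guardians to effectors, 1.37, fell to 0.811 with the other guardians and Bok added. It was 1.69 when Bcl2l2 was then read from the ID shared with Pabpn1, a comparison added after seeing the data. That ID is the one the planned choice of the highest ID would have used, so 0.811 rests on a departure from that plan. Under other scalings or a background of all gene IDs, Mcl1 exceeded between 86.5% and 87.8% of genes and Bid between 10.1% and 16.1%, while with no filter on low values Bid exceeded 49.5% and Bcl2l11, at 27.9% before, 59.5% of protein-coding genes. At 5 TPM or more Bcl2l11 exceeded 5.08%. No paired analysis was possible because 1 library was used. With no replicate and no depth, no order between neighbouring members could be tested.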

Other observations

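The table gives the symbol Bcl2l2 to 2 gene IDs. The ID that the name table also calls Bcl2l2, ENSMUSG00000089682, stood at 15.7 TPM. The other, ENSMUSG00000022194, stood at 122 TPM, is listed in the table under both Bcl2l2 and Pabpn1, and is Pabpn1 in the name table. The RefSeq annotation places the 2 genes next to each other on chromosome 14, with Bcl2l2 from 54883366 to 54890858 and Pabpn1 from 54894143 to 54898927. Read from the shared ID, Bcl2l2 would be the highest guardian gene of the library, above Mcl1 at 54.3 TPM, whereas on its own ID it lies between Bcl2l1 and Bcl2. How reads were divided between the IDs was not tested.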
